A study of Homo sapiens with 12 samples.

Results

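Transcripts of 6 CDK inhibitor genes were followed through the knockdown of CARM1 and of 4 subunits or partners of the NuRD complex. The genes were CDKN1A, CDKN1B and CDKN1C of the CIP/KIP family and CDKN2A, CDKN2C and CDKN2D of the INK4 family. They were chosen by name, through the match of Ensembl gene identifiers to symbols. All 6 were among the 58662 identifiers matched to an annotation, and all 6 passed the filter on low expression that left 12853 coding genes for the tests.

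The 2 families act on the kinases that drive cells from G1 into S phase. INK4 proteins bind CDK4 and CDK6 and keep them from pairing with D-type cyclins, so that the retinoblastoma protein stays unphosphorylated and holds E2F factors inactive. CIP/KIP proteins bind cyclin-CDK complexes, inhibit cyclin E-CDK2 and cyclin A-CDK2, and also help cyclin D-CDK4/6 complexes to assemble. CDKN1A encodes p21CIP1, a classical transcriptional target of p53, CDKN1B encodes p27KIP1, whose level is set largely by degradation through SKP2, and CDKN1C encodes p57KIP2 from an imprinted locus. CDKN2A encodes p16INK4a and, from a separate first exon in another reading frame, p14ARF. CDKN2C encodes p18INK4c and CDKN2D p19INK4d.

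RNA-seq was performed in cells that the labels give as HEK293T and the text of the study as HEK293. HEK293 is a human embryonic kidney line that carries adenoviral E1A, which binds pocket proteins, and its derivative HEK293T also carries SV40 large T antigen, which binds pocket proteins and p53. The cells were WT and grown under normal conditions, and they had received a control siRNA (siCTL) or an siRNA against CARM1, an arginine methyltransferase, CHD4, a chromatin remodeling ATPase, HDAC2, a histone deacetylase, GATAD2A, a zinc-finger subunit of NuRD, or KDM1A, a histone demethylase. The groups, named siCTL for the control and siCARM1, siCHD4, siHDAC2, siGATAD2A and siKDM1A for the knockdowns, held 2 libraries each, 12 in all, and the study asked how CARM1 and NuRD act together in transcription. The labels give neither the time after transfection nor whether the libraries of a group came from separate cultures, so p-values measure only the spread between these libraries, which may be technical. An siRNA lowers the level of a transcript without removing it, and no protein was measured here.

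Counts on genes summed to between 19308315 and 28648657 per library on the strand that the directional kit reads. The targeted genes fell in their own knockdowns, with log2 fold changes from −2.59 for KDM1A to −0.55 for CHD4, the weakest knockdown. Of 7 genes that the HEK293 line is known to express, NEFL, VIM, KRT8, KRT18 and LHX1 were present, whereas NEFM and PAX2 stayed at or below 0.339 FPKM (counts divided by exonic length and by the library total). Their summed level ranged from 401 FPKM in siGATAD2A to 632 FPKM in siCHD4, beside 468 FPKM in siCTL. Of 5 genes of the MCF7 breast line, also used in the study, KRT19 and GATA3 were present while ESR1, TFF1 and PGR stayed at or below 0.462 FPKM, and the list summed to 37 to 48.2 FPKM. The 3 blood genes summed to at most 0.196 FPKM, and the 4 fibroblast genes to between 9.47 and 15.5 FPKM, nearly all from COL1A1 with DCN near 0. The part of these shifts in the results below was not tested. In bulk RNA, fewer cells with a transcript and less transcript per cell cannot be told apart.

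The sequences just upstream of the start sites are given for the members that were called lower in at least 3 knockdowns and have an entry in the promoter table, and for both starts of CDKN2A, because counts per gene add the transcripts of these starts together. Each line gives the 150 bases before an annotated start, 5′ to 3′ on the strand of the gene, from RefSeq on GRCh38.p14. Capitals mark the GC box GGGCGG or its complement CCGCCC, the element bound by SP1 and related factors. CDKN1C has no entry in the table.
CDKN1A, chr6:36678564-36678713, + strand: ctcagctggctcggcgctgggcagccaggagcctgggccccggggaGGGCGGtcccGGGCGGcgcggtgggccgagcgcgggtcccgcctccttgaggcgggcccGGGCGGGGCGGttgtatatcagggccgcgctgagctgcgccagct
CDKN1B, chr12:12717218-12717367, + strand: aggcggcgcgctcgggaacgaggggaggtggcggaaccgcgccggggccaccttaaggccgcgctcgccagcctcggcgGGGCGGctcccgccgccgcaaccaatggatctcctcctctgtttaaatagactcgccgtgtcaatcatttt
CDKN2C, chr1:50970095-50970244, + strand: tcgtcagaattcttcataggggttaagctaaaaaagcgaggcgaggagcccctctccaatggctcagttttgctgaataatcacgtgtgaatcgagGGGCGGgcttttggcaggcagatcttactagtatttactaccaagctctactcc
CDKN2A, start nearest the p16INK4a exon, chr9:21974858-21975007, − strand: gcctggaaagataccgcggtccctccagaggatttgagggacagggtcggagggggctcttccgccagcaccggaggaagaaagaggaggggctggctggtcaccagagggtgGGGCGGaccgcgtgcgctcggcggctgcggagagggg
CDKN2A, upstream start, chr9:21995325-21995474, − strand: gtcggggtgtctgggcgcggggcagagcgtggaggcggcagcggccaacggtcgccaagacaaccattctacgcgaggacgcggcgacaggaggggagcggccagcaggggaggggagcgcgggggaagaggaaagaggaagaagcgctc

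These stretches differed in base composition. The CDKN1A stretch was 79.3% G or C and held 19 CpG dinucleotides and 4 GC boxes, 2 of which overlap. The CDKN1B stretch was 67.3% G or C with 20 CpG, whereas that of CDKN2C was 48.0% G or C with 6 CpG, each with 1 GC box. Both CDKN2A stretches were G and C rich, at 69.3% and 70.7%. Over 35116 promoters of the same table the median was 60.0% G or C and 7 CpG. In windows of 300 bases from 250 before to 50 after the start, GGGCGG or CCGCCC was found in 45% of all promoters, CCAAT or ATTGG in 34.6% and TATAAA or TTTATA in 11.5%. CCAAT or ATTGG was found 3 times in the CDKN1B window, 1 time in that of CDKN2C and not in those of CDKN1A and CDKN2A. These matches are a description of letters. CDKN2C has 2 further starts in the table. The 150 bases before the one 1539 bases upstream on GRCh37 are 79.3% G or C and hold 5 GC boxes, and those before the one 9500 bases upstream are 44% G or C and hold none.

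In control cells the 6 genes were expressed at very different levels (plot of CPM, counts scaled to the library size, by library). Per length of exon, CDKN1A was the most abundant member in siCTL at 87.7 ± 3.57 FPKM (SD, n = 2), followed by CDKN2A at 42.5 ± 4.08 FPKM and CDKN2C at 24.8 ± 0.0948 FPKM. CDKN1B reached 9.77 ± 0.218 FPKM, CDKN2D 7.23 ± 0.0214 FPKM and CDKN1C 6.70 ± 0.566 FPKM. The gap between CDKN2D and CDKN1C was smaller than the SD of CDKN1C, and the other neighbours in this order were further apart than their SDs. The order rests on the length and on the strand used. With the longest transcript in place of all exons, CDKN2A stood at 157 FPKM and CDKN1A at 116 FPKM, and CDKN1B at 20.9 FPKM. Counted without regard to strand, CDKN2A stood at 25.8 FPKM, below CDKN2C at 27.5 FPKM.

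**Figure D1:**
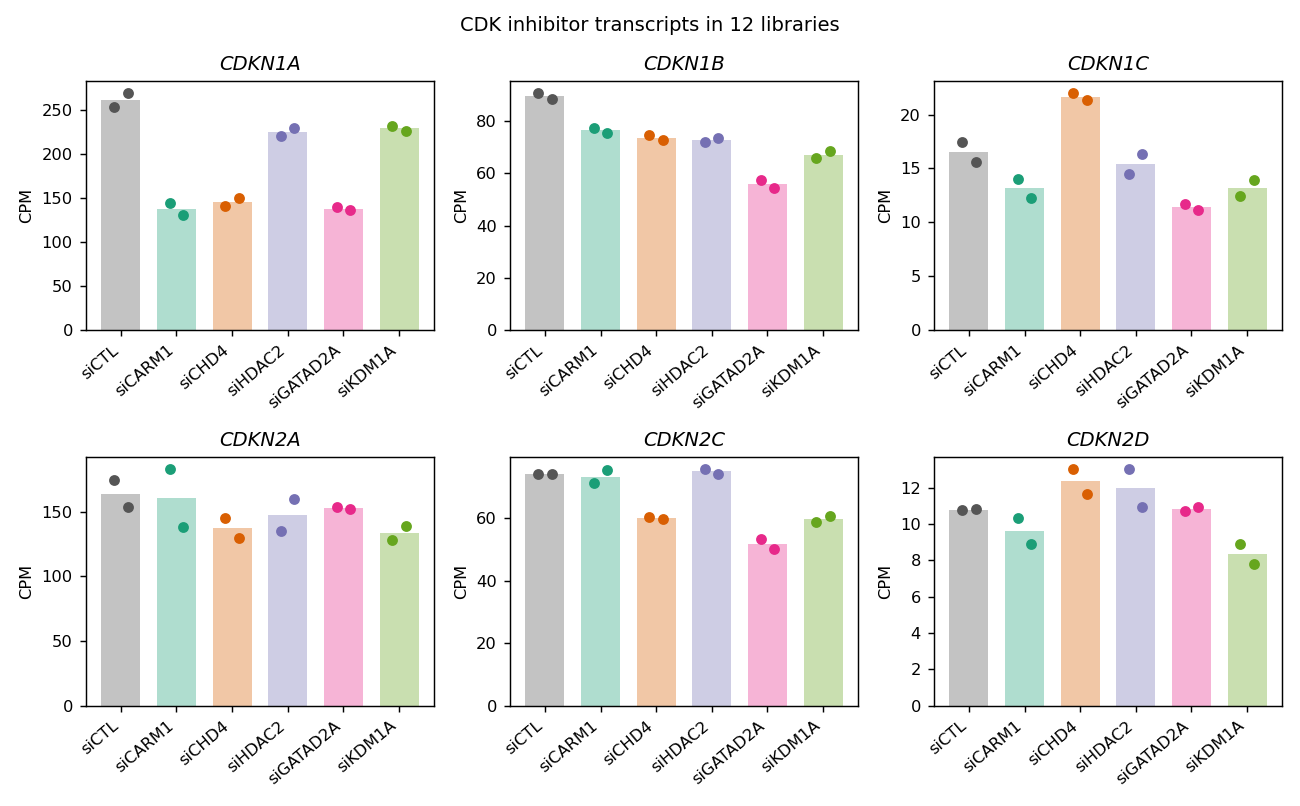
CPM (counts scaled to the library size, with TMM factors) of the 6 CDK inhibitor genes in the 12 libraries, with 1 panel a gene, points for the 2 libraries of each group and bars for their mean. The knockdowns fall into 2 tiers of CDKN1A, with siCARM1, siCHD4 and siGATAD2A between 131 and 150 CPM and siHDAC2 and siKDM1A between 220 and 232 CPM. The siCTL libraries stand above both tiers, at 252 and 269 CPM. CDKN1C is highest in both siCHD4 libraries.

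Lower levels prevailed in the knockdowns. Of the 30 comparisons of 6 genes in 5 knockdowns, all against the same 2 siCTL libraries, 25 had a log2 fold change under 0. CDKN2D was under 0 in only 2 of the 5 knockdowns. A call is an adjusted p of 0.05 or less from edgeR and a fold of at least 1.2. Of the 30, 15 were called lower and 1 higher, beside 15.9% and 15.6% of all tested genes over the 5 knockdowns. In siCARM1, CDKN1A and CDKN1C were called lower, 2 of 6 members beside 14.7% of all tested genes. The median log2 fold change over the members was −0.19. CDKN1A, CDKN1B and CDKN2C were called lower and CDKN1C higher in siCHD4, where 25.5% of all tested genes were called lower and 23.4% higher. CDKN1B alone was called lower in siHDAC2, 1 of 6 beside 9.28% of all genes called lower and 10.4% called higher. Some lower values had an adjusted p of 0.05 or less from edgeR but were under the fold minimum. These were CDKN1B in siCARM1 (−0.23), CDKN2A in siCHD4 (−0.26) and CDKN1A in siHDAC2 (−0.21).

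Most members fell in the remaining pair of knockdowns. In siGATAD2A, CDKN1A, CDKN1B, CDKN1C and CDKN2C fell, 4 of 6 beside 18.4% of all tested genes, with a median log2 fold change of −0.52. Every member except CDKN1A was called lower in siKDM1A, 5 of 6 beside 11.8% of all tested genes, with a median of −0.31. CDKN1A was also lower there, at −0.19 (adjusted p = 0.0016 from edgeR), but under the fold minimum. Of the 5 calls in siKDM1A, those for CDKN1C, CDKN2A and CDKN2D were lost when a single library was left out, as given with each gene. The median over all tested genes lay within 0.01 of 0 in each knockdown, where TMM scaling largely places it by design. The 5 comparisons share the siCTL libraries, so that a high value in siCTL enters all of them.

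**Figure D2:**
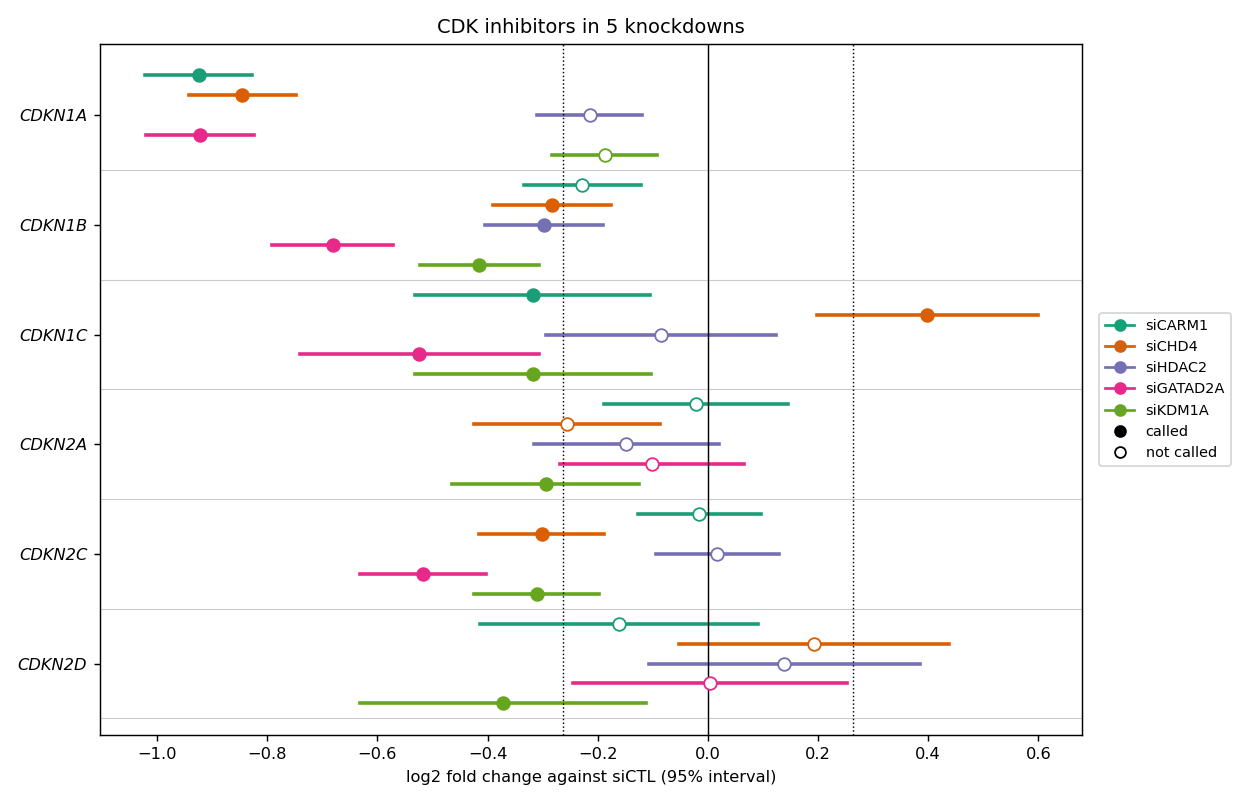
Log2 fold change of each CDK inhibitor gene against siCTL in the 5 knockdowns, with 95% intervals from edgeR. Filled points are called and open points are not, and dotted lines mark the 1.2-fold minimum on the log2 scale. CDKN1A reaches the lowest values, from −0.92 to −0.85 in siCARM1, siGATAD2A and siCHD4, and CDKN1C in siCHD4 is the only called value above 0.

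CDKN1A (ENSG00000124762.14, chromosome 6 of GRCh37, 36644237 to 36655114, + strand) was read at 252 and 269 CPM in siCTL. It stood at 144 and 131 CPM in siCARM1, at 141 and 150 CPM in siCHD4 and at 139 and 136 CPM in siGATAD2A, against 220 and 229 CPM in siHDAC2 and 232 and 226 CPM in siKDM1A. The first 3 knockdowns and the other groups did not overlap. CDKN1A fell 1.90-fold in siCARM1 (log2 fold change −0.92, standard error 0.048, adjusted p = 3.30e-16 from edgeR), 1.89-fold in siGATAD2A (−0.92, standard error 0.048, adjusted p = 2.63e-16 from edgeR) and 1.80-fold in siCHD4 (−0.85, standard error 0.048, adjusted p = 5.41e-16 from edgeR). In siHDAC2 and siKDM1A the log2 fold changes were −0.21 and −0.19, with adjusted p of 0.00056 and 0.0016 from edgeR, but both were under the fold minimum and were not called.

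The order of CDKN1A levels had a single called step, between its neighbours siHDAC2 and siCHD4. The difference was 0.63 on the log2 scale (adjusted p = 6.82e-13 from edgeR). At the top of the order, siCTL exceeded siKDM1A by 0.19 (adjusted p = 0.0016 from edgeR), under the fold minimum. Within the lower tier, siCHD4 exceeded siGATAD2A by 0.08 (95% interval −0.02 to 0.18), and siGATAD2A and siCARM1 differed by less than 0.01 (95% interval of siCARM1 minus siGATAD2A −0.10 to 0.10). Within the upper tier, siHDAC2 minus siKDM1A was −0.03 (95% interval −0.12 to 0.07). The tiers were drawn from these same levels, so counts of calls by tier describe the grouping and do not test it. All 6 contrasts across the tiers were called, where 19.3% to 48.9% of all tested genes were called. None of the 4 within a tier was called, where 14.3% to 47.5% of all tested genes were.

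CDKN1B (ENSG00000111276.11, chromosome 12, 12838432 to 12875303, + strand) was below both siCTL libraries, at 90.9 and 88.6 CPM, in every knockdown library. The lowest values were 57.5 and 54.3 CPM in siGATAD2A, where it fell 1.60-fold (log2 fold change −0.68, standard error 0.054, adjusted p = 3.76e-12 from edgeR). It fell 1.33-fold in siKDM1A, to 66 and 68.5 CPM (log2 fold change −0.42, standard error 0.053, adjusted p = 1.55e-07 from edgeR). The groups siGATAD2A and siKDM1A did not overlap with each other, and their difference of 0.27 was called (adjusted p = 0.000137 from edgeR), but it was under the fold minimum without siGATAD2A replicate 2 (−0.23 for siGATAD2A minus siKDM1A) or siKDM1A replicate 2 (−0.24).

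The other 3 knockdowns left CDKN1B closer to control. It fell by 0.30 on the log2 scale in siHDAC2, at 72.1 and 73.7 CPM, and by 0.28 in siCHD4, at 74.6 and 72.8 CPM. In siCARM1, at 77.5 and 75.6 CPM, the log2 fold change of −0.23 (adjusted p = 0.00059 from edgeR) was under the fold minimum. These 3 groups could not be told apart, with 95% intervals of −0.05 to 0.16 for siCARM1 minus siCHD4 and −0.09 to 0.12 for siCHD4 minus siHDAC2. Without replicate 1 of siCTL the siCHD4 value was −0.26, just under the fold minimum.

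CDKN1C (ENSG00000129757.14, chromosome 11, 2904443 to 2907005, − strand) was the member that moved in opposite directions. It was read at 17.4 and 15.5 CPM in siCTL and at 22.0 and 21.3 CPM in siCHD4, where it rose 1.32-fold (log2 fold change 0.40, standard error 0.098, adjusted p = 0.00072 from edgeR). In siGATAD2A it fell 1.44-fold, to 11.7 and 11.2 CPM (log2 fold change −0.52, standard error 0.106, adjusted p = 0.00012 from edgeR). The siCHD4 libraries lay above and the siGATAD2A libraries below every other library.

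Smaller decreases of CDKN1C were called in siCARM1, at 14.0 and 12.3 CPM, and in siKDM1A, at 12.5 and 13.9 CPM, with log2 fold changes of −0.32 in each (adjusted p = 0.0125 and 0.0148 from edgeR). Each call was lost without siCTL replicate 1, with values of −0.24 and −0.24, and also without 1 library of the knockdown, replicate 2 of siCARM1 (−0.23) or replicate 1 of siKDM1A (−0.24). In siHDAC2, at 14.5 and 16.3 CPM, the libraries overlapped with siCTL (log2 fold change −0.08, 95% interval −0.29 to 0.12). The contrast of siCHD4 with each of the other 4 knockdowns was called, from 0.48 against siHDAC2 to 0.92 against siGATAD2A. In these contrasts 44.7% to 48.9% of all tested genes were called.

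CDKN2A (ENSG00000147889.18, chromosome 9, 21967751 to 21995300, − strand) was the member whose replicates lay furthest apart, in siCARM1. It was read at 175 and 153 CPM in siCTL, at 183 and 138 CPM in siCARM1, at 145 and 129 CPM in siCHD4 and at 135 and 160 CPM in siHDAC2. In siGATAD2A it stood at 153 and 152 CPM and in siKDM1A at 128 and 139 CPM. The siCARM1 libraries held both the highest value and a value below those of siCTL, and both siCHD4 and both siKDM1A libraries were below siCTL, as were those of siGATAD2A by a narrow margin.

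A decrease of CDKN2A was called in siKDM1A alone (log2 fold change −0.29, standard error 0.083, adjusted p = 0.0046 from edgeR). DESeq2 gave the same size, −0.30, with an adjusted p of 0.131, and the call was also lost without siCTL replicate 1 (−0.20) or siKDM1A replicate 1 (−0.24). In siCHD4 the log2 fold change of −0.26 (adjusted p = 0.0076 from edgeR) was just under the fold minimum and crossed it without siCHD4 replicate 1 (−0.34) or siCTL replicate 2 (−0.34). Of the 10 pairs of knockdowns, only siCARM1 minus siKDM1A was called, at 0.27, although the libraries of the 2 groups overlapped. Without siCARM1 replicate 1 this difference was 0.05 (adjusted p = 0.66 from edgeR), and it was also not called without siKDM1A replicate 1 (0.21) or by DESeq2. No neighbours in the order of the 6 CDKN2A levels were told apart.

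The counts of CDKN2A do not separate p16INK4a from p14ARF, and 15.3% of its exonic bases lie opposite exons of CDKN2B-AS1, a long non-coding RNA also known as ANRIL. This antisense gene, looked up after its values were seen, was read at 19.5 ± 1.61 CPM in siCTL (SD, n = 2). In a fit over every biotype it fell in siCHD4 (log2 fold change −0.62, adjusted p = 8.06e-07 from edgeR, beside 19.8% of genes called lower), to 12.8 ± 0.601 CPM. It rose in siHDAC2 by 0.40 and in siGATAD2A by 0.35, beside 8.64% and 12.7% of genes called higher. Counts read from the opposite strand of CDKN2A were 2.89% to 4.23% of its own counts over the 6 groups. Counted without regard to strand, where a pair that overlaps genes on both strands is assigned to neither, CDKN2A stood at 25.8 FPKM in siCTL.

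CDKN2C (ENSG00000123080.12, chromosome 1, 51426417 to 51440306, + strand) fell in 3 knockdowns and was not called in the other 2. It was read at 74.2 CPM in both siCTL libraries, at 71.3 and 75.6 CPM in siCARM1 and at 76.0 and 74.2 CPM in siHDAC2. It stood at 60.5 and 59.9 CPM in siCHD4, at 58.7 and 60.8 CPM in siKDM1A and at 53.5 and 50 CPM in siGATAD2A. The first 3 groups did not overlap with the other 3.

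CDKN2C fell 1.43-fold in siGATAD2A (log2 fold change −0.52, standard error 0.056, adjusted p = 4.02e-09 from edgeR), 1.24-fold in siKDM1A (−0.31, adjusted p = 3.50e-05 from edgeR) and 1.23-fold in siCHD4 (−0.30, adjusted p = 1.98e-05 from edgeR). In siCARM1 the 95% interval of the log2 fold change was −0.13 to 0.10 and in siHDAC2 −0.09 to 0.13, so that a decrease as large as the fold minimum lies outside both intervals. The step in the order lay between siCARM1 and siCHD4, a difference of 0.29 (adjusted p = 3.59e-05 from edgeR) that was 0.24, under the fold minimum, without siCARM1 replicate 2. Below it, siGATAD2A was lower than siKDM1A by 0.21 (adjusted p = 0.0031 from edgeR), which was under the fold minimum.

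The study designed RT-qPCR primers for CDKN2C, and they show which part of the transcript such an assay reads.
CDKN2C forward primer, chr1:51436147-51436166 of GRCh37, + strand: gatttggaaggactgcgctg
CDKN2C reverse primer, chr1:51439856-51439875 of GRCh37, − strand: tagagcctggccaaatcaca
The forward primer lies in exon 1 of 2 and the reverse primer in exon 2 of 2 of the canonical transcript, and each had 1 match on its strand of the chromosome. The counts cover all exons of the gene, of which 20.4% lie opposite an antisense gene model. Opposite-strand counts of CDKN2C were 5.90% of its own in siCTL, 9.70% in siCARM1 and 9.26% in siGATAD2A.

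CDKN2D (ENSG00000129355.7, chromosome 19, 10677136 to 10679735, − strand) had the lowest counts of the 6, with group means from 198.5 to 297.5 counts, and correspondingly wide intervals. It was read at 10.8 CPM in both siCTL libraries and at 8.91 and 7.81 CPM in siKDM1A, the only call (log2 fold change −0.37, standard error 0.127, adjusted p = 0.0184 from edgeR). The call was lost without siCTL replicate 1, siCTL replicate 2 or siKDM1A replicate 2, with values of −0.37, −0.37 and −0.28. The size thus held in the first 2 cases while the test had fewer libraries. In siCARM1 it stood at 10.3 and 8.89 CPM, in siCHD4 at 13.1 and 11.6 CPM, in siHDAC2 at 13.0 and 10.9 CPM and in siGATAD2A at 10.7 and 11 CPM. The log2 fold change in siCHD4 was 0.19 (95% interval −0.05 to 0.44), and siCHD4 minus siKDM1A was called at 0.56 (adjusted p = 0.00017 from edgeR).

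Summed over the members of a family, CIP/KIP transcripts differed more between groups than INK4 transcripts (stacked plot of FPKM). The INK4 sum leaves out CDKN2B, an INK4 gene outside the set, at 4.46 FPKM in siCTL. CIP/KIP transcripts summed to 104 ± 2.78 FPKM in siCTL (SD, n = 2). They summed to 59.7 ± 3.73 FPKM in siCARM1, 63.8 ± 1.81 FPKM in siCHD4 and 56.8 ± 1.13 FPKM in siGATAD2A, against 88.9 ± 2.50 FPKM in siHDAC2 and 89.5 ± 0.542 FPKM in siKDM1A. CDKN1A made up most of this sum in every group, from 74.4% in siCHD4 to 85.9% in siKDM1A, with 84.2% in siCTL. The share of CDKN1C in siCHD4 was 13.4% against 6.44% in siCTL. The sum of INK4 transcripts moved less, from 74.5 ± 4.19 FPKM in siCTL to 60.0 FPKM in siKDM1A, the lowest group, and the 2 siCARM1 libraries, at 66.9 and 78.2 FPKM, spanned the siCTL mean. These sums are descriptions with no test.

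**Figure D3:**
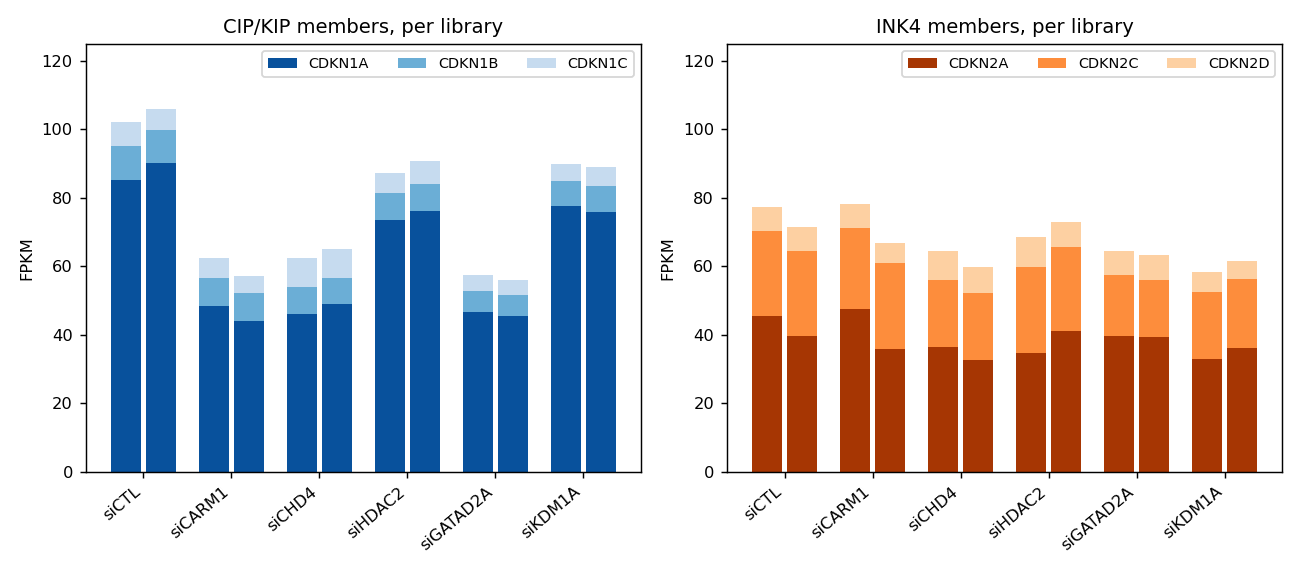
FPKM of the CIP/KIP members (left) and of the INK4 members CDKN2A, CDKN2C and CDKN2D (right), stacked for each of the 12 libraries, with the 2 bars of a group side by side. The CIP/KIP stack is lowest in siCARM1, siCHD4 and siGATAD2A, at 56.0 to 65.1 FPKM against 102 and 106 FPKM in siCTL, and most of each stack is CDKN1A.

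Contrasts between knockdowns showed which groups differed for each member. Of 60 contrasts, 10 for each gene, 27 were called. CDKN1A and CDKN2C each had 6 called, CDKN1C and CDKN2D 5, CDKN1B 4 and CDKN2A 1. Of the 27 calls, 8 were lost when a single library was left out. These were the 1 of CDKN2A, that of CDKN1B between siGATAD2A and siKDM1A, those of CDKN2C between siCARM1 and siCHD4 or siKDM1A, and those of CDKN2D except siCHD4 minus siKDM1A. For CDKN2C the called pairs were those of siCARM1 or siHDAC2 with each of the other 3 knockdowns, while for CDKN1A they were those of siHDAC2 or siKDM1A with the other 3. The siKDM1A libraries thus stood in the upper tier for CDKN1A and in the lower tier for CDKN2C, whereas those of siCARM1 did the reverse. By pair, 4 of 6 members were called between siHDAC2 and siGATAD2A, beside 29.4% of all tested genes called in either direction. Between siCHD4 and the others 3 were called against siCARM1 (47.5% of all genes), 3 against siHDAC2 (48.9%), 3 against siKDM1A (47.7%) and 2 against siGATAD2A (44.7%), so that the members' share was close to or below that of all genes. Between siKDM1A and the others 3 were called against siCARM1 (21%), 3 against siGATAD2A (32.1%) and 2 against siHDAC2 (14.3%). For siCARM1 there were 2 against siGATAD2A (33.8%) and 2 against siHDAC2 (19.3%).

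CDKN2B encodes p15INK4b, the INK4 protein known for its induction by TGF-beta, and lies beside CDKN2A. It was no member of the set, and it was called higher in 3 knockdowns and lower in none. It was read at 17.6 and 17.8 CPM in siCTL and rose to 26.0 and 25.9 CPM in siCARM1, 26.8 and 26.3 CPM in siGATAD2A and 25.4 and 26.1 CPM in siKDM1A. The log2 fold changes were 0.55, 0.58 and 0.54, beside 14.7%, 15.4% and 14% of all tested genes called higher. In siCHD4 and siHDAC2 its values were 0.01 and −0.08 with neither called, and each of the 6 contrasts between these 2 groups and the other 3 knockdowns was called. CDKN2A was called lower than control in siKDM1A, where CDKN2B was higher. As given above, this CDKN2A call was lost with DESeq2, without siCTL replicate 1 and without siKDM1A replicate 1.

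Of 56 other genes of the pathway in 6 lists, CDKN2B among them, all were tested. They were called lower 49 times and higher 52 times in 280 comparisons, or 17.5% and 18.6%, close to the shares of all tested genes over the 5 knockdowns, 15.9% lower and 15.6% higher. Their median log2 fold change was within 0.04 of 0 in each knockdown (plot of the lists). The 12 CDKs and cyclins that the inhibitors bind were called lower 18 times and higher 8 times of 60, or 30% and 13.3% beside 15.9% and 15.6% of all genes. CCNA1, a cyclin A mainly known from germ cells, fell in 4 knockdowns, most in siCHD4 (log2 fold change −1.24, adjusted p = 1.29e-08 from edgeR), and stood at 0.07 in siKDM1A. CCND1, the D-type cyclin partner of CDK4 and CDK6, had the largest change of this list in siKDM1A, a decrease of 0.69 from 309 to 191 CPM.

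The 3 pocket proteins were called lower 3 times and higher 6 times of 15, beside 15.9% and 15.6% of all genes. RB1, the retinoblastoma protein, fell by 0.49 in siCHD4. RBL1 (p107) rose by 0.47 in siCARM1 and by 0.33 in siKDM1A, the latter not called without siCTL replicate 1 (0.23). RBL2 (p130) rose by 0.38 in siHDAC2 and fell by 0.43 in siGATAD2A. Also called were RBL1 in siHDAC2 (0.38), RBL2 in siCARM1 (0.35) and siKDM1A (0.32), and RB1 in siGATAD2A (−0.32). The list thus had no common direction over the knockdowns, but it split by knockdown. All its calls were higher in siCARM1, siHDAC2 and siKDM1A. They were lower in siGATAD2A and in siCHD4, where RB1 alone was called.

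Genes of the ubiquitin ligases and adaptors that degrade p27 and p21 had the lowest share of calls among the lists, with 5 calls lower and 5 higher of 60, or 8.33% each way beside 15.9% and 15.6% of all genes. SKP2, the F-box protein that recognises p27, rose by 0.34 in siCARM1, and its cofactor CKS1B fell by 0.29 in siKDM1A. PCNA, the replication clamp on which p21 is degraded, fell by 0.49 in siCHD4 and by 0.42 in siGATAD2A. No gene of this list was called in siHDAC2.

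Transcription factors and signalling proteins known to act on CDK inhibitor genes were called lower 13 times and higher 23 times of 90, or 14.4% and 25.6% beside 15.9% and 15.6% of all genes. TP73, a relative of p53, fell in all 5 knockdowns, from −0.28 in siGATAD2A to −0.97 in siCHD4, but its calls in siGATAD2A (−0.20) and siHDAC2 (−0.22) were lost without siCTL replicate 2. MYC, which represses CDKN1A and CDKN2B together with ZBTB17 (MIZ1), rose in all knockdowns but siGATAD2A, by 0.83 in siCARM1, 0.98 in siCHD4, 0.43 in siHDAC2 and 0.55 in siKDM1A. ZBTB17 was called higher in all but siHDAC2, at 0.29 to 0.38, but these calls depend on the strand counted. Without regard to strand ZBTB17 was called lower in siCHD4, at −0.31, and was not called in siCARM1 (−0.11), siKDM1A (0.09) or siGATAD2A, where its value was near 0. KLF4, an activator of CDKN1A, rose in all but siHDAC2, most in siCHD4, from 20.4 to 55.3 CPM (log2 fold change 1.44, adjusted p = 5.32e-17 from edgeR). In siHDAC2 the value of KLF4 was −0.06. ID1, an inhibitor of helix-loop-helix factors, fell by 0.78 in siHDAC2 and by 0.67 in siGATAD2A.

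Repressors of the INK4 locus, mostly Polycomb proteins, were called lower 10 times and higher 7 times of 50, or 20% and 14% beside 15.9% and 15.6% of all genes. CBX8, a chromodomain subunit of Polycomb repressive complexes, fell in all 5 knockdowns, from −0.30 in siGATAD2A to −0.83 in siCHD4. KDM2B, a histone demethylase that recruits such a complex to CpG islands, rose in all 5, by 0.31 to 0.42. A single library decided 1 call of each, that of CBX8 in siGATAD2A (−0.25 without siCTL replicate 1) and that of KDM2B in siKDM1A (0.24 without siKDM1A replicate 1). CBX7 fell by 1.13 in siCHD4 and was not called in the other 4.

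**Figure D4:**
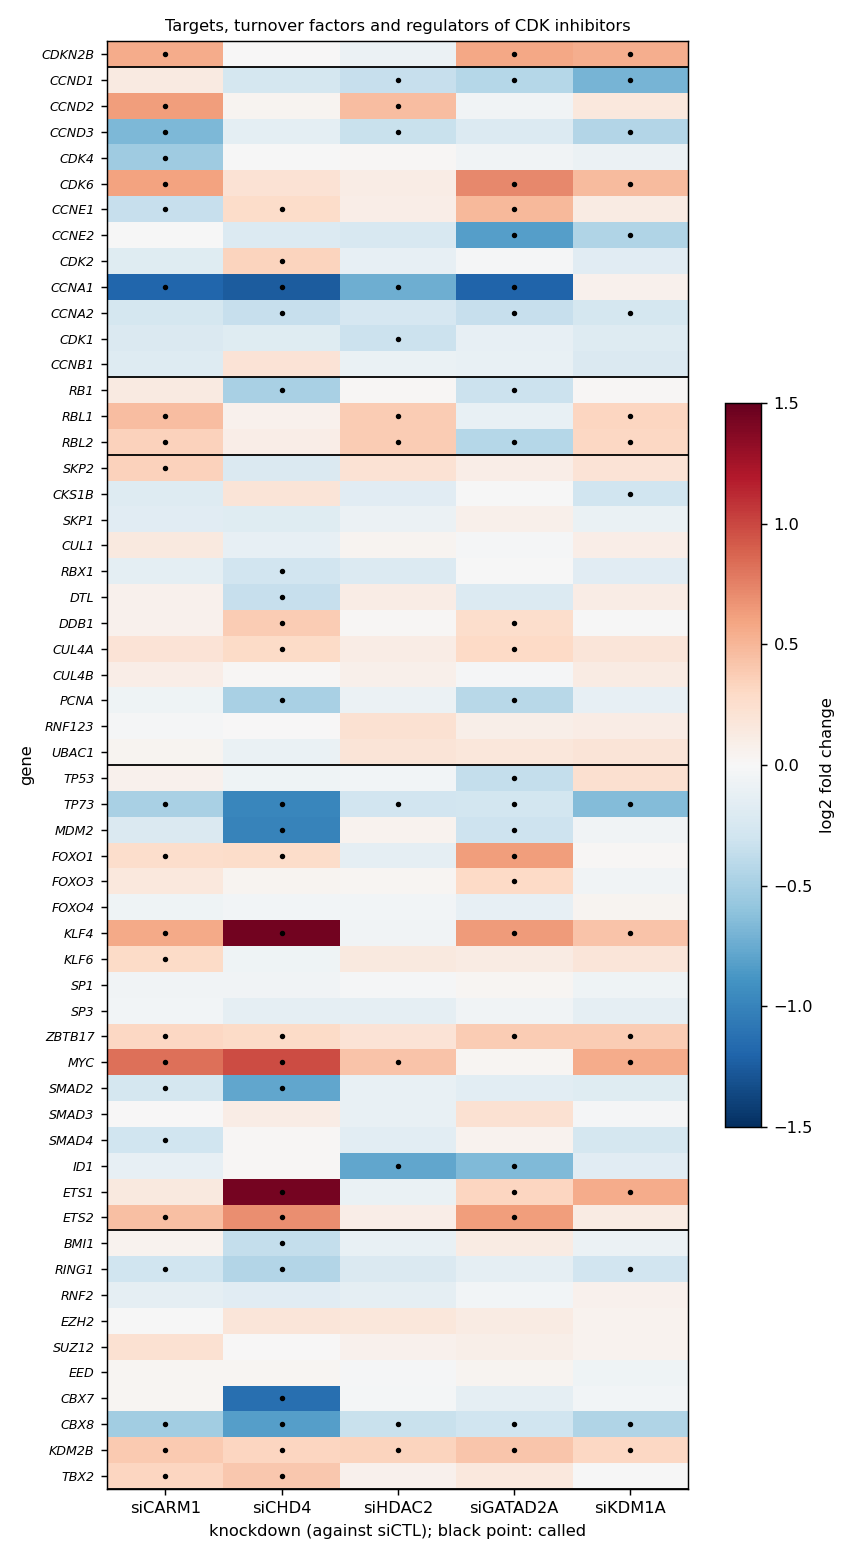
Log2 fold change of 56 pathway genes (rows) in the 5 knockdowns (columns), from blue (lower) to red (higher) against siCTL, with a black point where a gene was called and lines between the 6 lists. From top to bottom these are CDKN2B, CDKs and cyclins, pocket proteins, turnover of p27 and p21, transcription regulators and repressors of the INK4 locus. CDKN2B is higher in 3 knockdowns, and TP73, CBX8 and KDM2B are called in all 5.

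The coding genes next to the members on the chromosome had values of their own. Beside CDKN1B, CREBL2 rose in the 4 knockdowns where CDKN1B was called lower. It rose by 1.12 in siCHD4, 0.82 in siGATAD2A, 0.44 in siHDAC2 and 0.40 in siKDM1A. In siCARM1, where CDKN1B was lower by 0.23 but under the fold minimum, CREBL2 stood at −0.09 and was not called. On the other side of CDKN1B, APOLD1 fell by 0.78 in siCHD4, by 0.91 in siGATAD2A and by 0.32 in siHDAC2. SLC22A18 beside CDKN1C fell by 1.5 in siCHD4, where CDKN1C rose, and KCNQ1 on the other side was not called in any knockdown. SRSF3, upstream of CDKN1A, was not called either, with values from −0.12 to −0.02. Beside CDKN2C, FAF1 rose by 0.29 in siGATAD2A. MTAP, beyond CDKN2A, fell by 0.28 in siGATAD2A. KRI1 next to CDKN2D fell by 0.71 in siCHD4, and AP1M2 on its other side rose by 0.84 in siCARM1 and by 1.04 in siKDM1A. RAB44 and C1orf185 did not pass the filter.

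Genes whose pattern over the 12 libraries was most like that of a member were ranked by Pearson's r of log2 CPM among 12852 genes. They are a description, since libraries of a group share their siRNA and the genes their libraries. For CDKN1A these were TTC38 (r = 0.97), HLA-DPA1 (0.97) and CDC25B (0.97), for CDKN1B CYB5B (0.97), IFNAR1 (0.97) and ANLN (0.95), and for CDKN1C RUNDC1 (0.98), RAB11FIP1 (0.96) and LRP5 (0.95). The closest genes to CDKN2A were FBXL6 (0.93), IRF2BP1 (0.89) and IRX3 (0.89), those to CDKN2C were DSN1 (0.97), RMI1 (0.96) and SMOC2 (0.95), and those to CDKN2D were ZFHX3 (0.89), NUMA1 (0.87) and ATP2B4 (0.87). Among the members themselves CDKN1B and CDKN2C were the most alike, at 0.83, and the next pair, CDKN1B and CDKN1C, reached 0.56.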

How the data were processed

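RNA-seq was measured in 12 libraries of cells given by the labels as HEK293T. For each Ensembl gene the authors deposited unnormalized counts in the layout of STAR gene counts, with 1 unstranded and 2 stranded columns. The submitters' processing notes name CASAVA 1.4, STAR 2.7.10 and hg19. The study's methods name TopHat and RefSeq genes for RNA-seq, which differ from these files, and the release of the Ensembl annotation behind the deposited counts is not given in the sources used here. Identifiers were matched to GENCODE release 44 on GRCh37 (58662 of 60660). The 1954 without a match and 44 pseudoautosomal copies on Y were left out.

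Reverse-strand counts were normalized by TMM and tested by edgeR 4.0.16 in R 4.3.3, in a model of 6 group means over coding genes with FPKM over 0.5 in at least 1 group mean. Calls needed an edgeR value of 0.05 or less after Benjamini-Hochberg adjustment over all tested genes and a fold of at least 1.2. FPKM divides counts by the union of exons and the total on genes, and log2 CPM uses a prior count of 2. DESeq2 1.42.0, RLE factors, unstranded counts, other filters, a replicate block, only the groups compared and each library left out were alternatives. The exact permutation test of 2 against 2 libraries cannot go below 0.333. No pair of replicates was a duplicate, since the chi-square of their counts was 1.77 to 4.96 times its degrees of freedom. Same-numbered libraries did not deviate together (r from −0.14 to 0.14), so numbers were not taken as pairs. Simulated counts were drawn independently with the fitted spread, with the same 200 of 12853 genes changed in every knockdown. On these, edgeR recovered 174 to 181 per knockdown and called 2 to 8 unchanged genes. Far fewer genes were changed there than were called in the data, so this does not give the error of the calls above.

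Named were the members in every comparison, the 3 genes most correlated with each, list genes called one way in at least 4 knockdowns or with the largest called change of their list, the nearest coding genes and the targets. Members and lists were chosen with earlier results of these data known.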

Additional observations from a re-analysis of the deposited data

Results flagged for a closer look

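CDKN1C was singled out because its change against siCTL had opposite directions in different knockdowns and the difference was itself called by edgeR. The difference on the log2 scale was 0.72 (standard error 0.099) for siCHD4 minus siCARM1, 0.92 (standard error 0.101) for siCHD4 minus siGATAD2A and 0.72 (standard error 0.099) for siCHD4 minus siKDM1A. Both siCHD4 libraries, at 22.0 and 21.3 CPM, were higher than the 2 libraries of each of these knockdowns. Calls were common in these contrasts, for 47.5%, 44.7% and 47.7% of all tested genes against siCARM1, siGATAD2A and siKDM1A. The CDKN1C decreases against siCTL in siCARM1 and siKDM1A were not called without siCTL replicate 1. CHD4 was also the target that was lowered least, with a log2 fold change of −0.55 against −1.75 to −2.59 for the other 4. The part of this in the result was not tested.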

How the results depend on the processing

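No member's log2 fold change against siCTL, and no called contrast of a member between knockdowns, changed direction with a call under the alternatives run. Of the 101 called pathway values, 2 did, both of ZBTB17 in counts without regard to strand, at −0.11 in siCARM1 and −0.31 in siCHD4. With RLE size factors, a stricter FPKM filter, filterByExpr on every biotype or only the 2 groups compared, each member kept its call in each of the 30 comparisons, and DESeq2 changed that of CDKN2A in siKDM1A. The replicate block changed no call of a member either, with 4 members called in siCHD4 and 27 contrasts between knockdowns with and without it, so it is given only as a check. Members called in siHDAC2 were 2 in counts without regard to strand, where CDKN2A reached −0.27, and 2 with no fold minimum, where CDKN1A was added. Also called with no fold minimum were CDKN1B in siCARM1, CDKN2A in siCHD4 and CDKN1A in siKDM1A. Without a filter on low counts, CDKN2A in siCHD4 was called at −0.26. With no fold minimum the pathway genes called, of 56, were 36 in siCARM1, 38 in siCHD4, 24 in siHDAC2 and 33 in siKDM1A. No share of all tested genes at this setting stands beside these counts. The shares given above include the fold minimum, so they cannot be set against them. Leaving out each library in turn gave 1 to 2 members called in siCARM1, 3 to 5 in siCHD4, 1 to 2 in siHDAC2, 4 in siGATAD2A and 2 to 5 in siKDM1A, 24 to 27 contrasts between knockdowns, and 21 to 24, 23 to 25, 11 to 14, 23 to 24 and 15 to 18 pathway genes in siCARM1, siCHD4, siHDAC2, siGATAD2A and siKDM1A. Where 1 library of a group is left, it is assumed to vary like the others.

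Levels in siCTL with the longest transcript as length were 116 FPKM for CDKN1A, 20.9 for CDKN1B, 8.58 for CDKN1C, 157 for CDKN2A, 25.7 for CDKN2C and 7.63 for CDKN2D. Without regard to strand they were 92.0 for CDKN1A, 10.3 for CDKN1B, 25.8 for CDKN2A, 27.5 for CDKN2C and 7.76 for CDKN2D. Depth limits CDKN2D most, where a 1.2-fold change is close to 2 standard errors. The labels name 2 sequencing companies without saying which library went where, so a batch could not be examined.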
